A study of Mus musculus with 8 samples.

Results

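The 33 genes described here encode the enzymes and 2 transcription factors that build, lengthen and desaturate fatty acids, and the synthetases that activate them. They were chosen by symbol from the 55385 genes of the deposited count table, by a rule that uses no measured value, although the set was drawn up with earlier results of these data known. Of the 33 genes, 31 had enough counts to be tested and 2, Elovl2 and Elovl4, did not. Expression was measured by RNA-seq of rRNA-depleted left ventricle from male C57BL6 mice, in 4 libraries labelled Mst1-TG and 4 labelled WT. Mst1-TG mice carry an Mst1 transgene under the alpha-myosin heavy chain promoter, which is restricted to cardiomyocytes, and are labelled as experimental dilated cardiomyopathy. WT mice are littermates without the transgene. The design text gives an age of 3 weeks, the extraction protocol one of 3 months, and the growth protocol both 3 weeks and an adult age of 5.5 months, and the labels do not settle which holds for these libraries. The labels name no treatment, and none of them states that every library came from its own animal. The p-values therefore reflect the scatter among libraries, which may be technical.

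Cells build palmitate in the cytosol from acetyl-CoA, which ATP citrate lyase makes from exported citrate and acetyl-CoA carboxylase turns into malonyl-CoA, with NADPH as the reductant. Elongases and their partner enzymes in the endoplasmic reticulum then add carbon pairs, and desaturases insert double bonds that make monounsaturated and polyunsaturated acids. The heart oxidises fatty acids far more than it makes them, and there malonyl-CoA is best known as the inhibitor of fatty acid entry into mitochondria.

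Values are counts scaled to library size and corrected with TMM factors (CPM), and a gene is said to have risen or fallen where edgeR's quasi-likelihood test gave a Benjamini-Hochberg adjusted p below 0.05 over the 15314 genes tested. Of the 31 tested genes, 10 rose in Mst1-TG, 9 fell and 12 did not pass. Over all genes tested 42.3% were called, 21.2% higher and 21.1% lower, so these counts lie above that background by a few genes in each direction. The median log2 fold change of the 31 genes was 0.17, beside 0.01 over all genes tested. The 4 libraries of one group lay apart from the 4 of the other for 19 of the 31 genes, against 40.3% of all genes tested, with Mst1-TG higher in 9 (background 20.2%) and lower in 10 (background 20.1%). A called change of at least 2-fold was seen in 6 of the 31 genes and in 10.4% of all genes tested. Acsl6 passed the filter on low counts only through the WT libraries, and without it the 30 remaining genes held 10 that rose, 8 that fell and 12 that did not pass. Of those 30, 18 did not overlap between groups and 5 were called with a change of at least 2-fold.

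**Figure D1:**
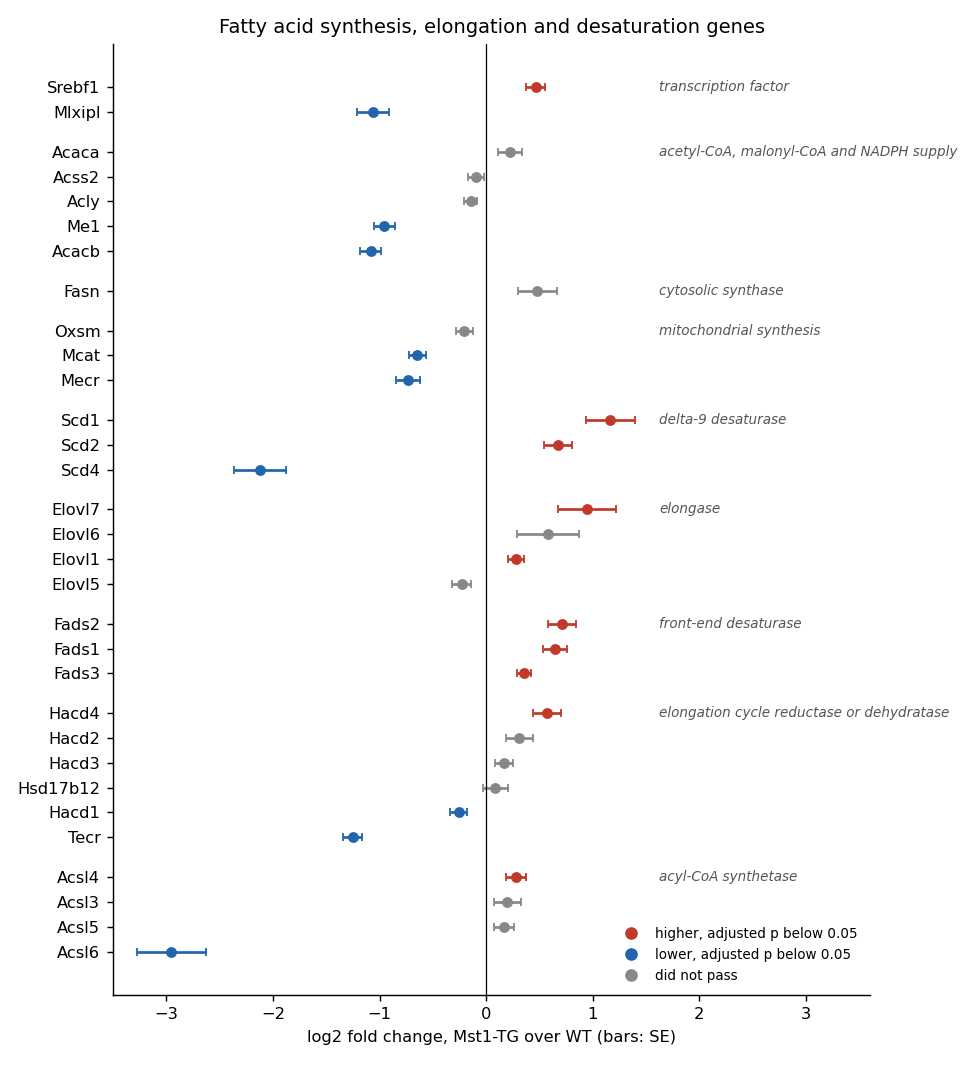
Log2 fold change of Mst1-TG over WT (x axis) for the 31 tested genes, grouped by role, with bars for the standard error and colour for the call at an adjusted p below 0.05. Delta-9 desaturases run from 1.17 for Scd1 to -2.12 for Scd4, the 3 front-end desaturases are all higher, and Acsl6 lies lowest at -2.95.

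Total counts ran from 21193536 to 23809256 per library. Stk4, the gene of the Mst1 kinase, was 59.0-fold higher in Mst1-TG than in WT, in keeping with its label. Mitochondrially encoded genes took 21.4% to 23.8% of counts in WT and 12.9% to 14.4% in Mst1-TG. With library totals in place of TMM factors, the median over all genes shifted from 0.01 to 0.29 on the log2 scale. Ventricular markers summed to 4933 CPM or more in each library and atrial markers to 128 CPM or less, as the labelled chamber implies. Of 8 cardiomyocyte markers 6 fell, and their sum was 35111 to 44859 CPM in Mst1-TG, against 50767 to 60348 CPM in WT. All 6 fibroblast markers rose, and their sum was 3998 to 5472 CPM in Mst1-TG, against 1578 to 1914 CPM in WT. In such bulk tissue fewer cells of a type and less RNA per cell cannot be told apart, and the part of these shifts in the results that follow was not tested.

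The 2 transcription factors moved in opposite directions. Srebf1 encodes SREBP-1, the sterol-regulated activator of lipogenic genes, and measured 43.8, 44.9, 39.3 and 33.4 CPM in Mst1-TG 1 to 4 and 29.3, 27.96, 28.5 and 31.2 CPM in WT 1 to 4. The lowest Mst1-TG library lay just above the highest WT library. Srebf1 rose 1.38-fold, a log2 fold change of 0.46 ± 0.09 (SE) with an edgeR adjusted p of 0.00103. Mlxipl encodes ChREBP, the carbohydrate-responsive activator of the same enzymes, and measured 7.54, 8.33, 4.77 and 6.52 CPM in Mst1-TG and 13.5, 16.3, 13.9 and 12.95 CPM in WT. Its groups lay well apart, with every WT library above every Mst1-TG library. Mlxipl fell by 1.06 ± 0.15 on the log2 scale (edgeR adjusted p = 8.9e-05).

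The promoter sequences of both factors and of Fads3, a desaturase gene that rose, show which of the motifs listed below are present in these windows. Each is the 250 bases before a RefSeq transcript start (GRCm38.p6), printed 5′ to 3′ on the gene's strand, with matches to the searched motifs in capitals. The searched motifs, on both strands, were the sterol response element core TCACNCCAC, the E-box CACGTG, the NF-Y box CCAAT, the Sp1 box GGGCGG, the TEAD site GGAATG, and the LXR (DR4) and PPAR (DR1) direct repeats, and none of these motifs contains another. Srebf1 lies at chr11:60220628-60220877 (minus strand) for the middle of its 3 starts, inside the annotated gene. Mlxipl lies at chr5:135089640-135089889 and at chr5:135106641-135106890 (plus strand), the latter inside the gene. Fads3 lies at chr19:10041298-10041547 (plus strand).
Srebf1: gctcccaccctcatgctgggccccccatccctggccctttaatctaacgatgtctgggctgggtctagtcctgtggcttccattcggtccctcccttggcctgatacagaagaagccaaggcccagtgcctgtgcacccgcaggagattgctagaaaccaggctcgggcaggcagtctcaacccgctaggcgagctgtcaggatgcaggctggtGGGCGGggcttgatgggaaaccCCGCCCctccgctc
Mlxipl, first start: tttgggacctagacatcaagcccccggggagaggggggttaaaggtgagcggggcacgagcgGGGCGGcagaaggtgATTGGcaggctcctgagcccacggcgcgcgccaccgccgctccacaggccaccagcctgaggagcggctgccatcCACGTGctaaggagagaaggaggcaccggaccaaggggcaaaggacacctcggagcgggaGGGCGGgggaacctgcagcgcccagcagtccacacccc
Mlxipl, inner start: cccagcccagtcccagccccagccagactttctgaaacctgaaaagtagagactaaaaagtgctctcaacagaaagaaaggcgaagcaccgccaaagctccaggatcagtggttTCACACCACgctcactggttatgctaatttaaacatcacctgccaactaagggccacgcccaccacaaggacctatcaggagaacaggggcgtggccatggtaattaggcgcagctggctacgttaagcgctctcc
Fads3: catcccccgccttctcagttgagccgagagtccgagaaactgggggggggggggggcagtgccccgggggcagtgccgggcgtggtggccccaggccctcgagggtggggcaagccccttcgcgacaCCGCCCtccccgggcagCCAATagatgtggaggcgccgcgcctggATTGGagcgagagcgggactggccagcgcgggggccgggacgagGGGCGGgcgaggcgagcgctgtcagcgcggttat

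The printed Srebf1 window holds 2 Sp1 boxes. Of its other 2 windows, not printed, chr11:60210472-60210721 holds 1 NF-Y box and 2 Sp1 boxes, and chr11:60222582-60222831 holds 1 NF-Y box. The first Mlxipl window holds 1 E-box, 1 NF-Y box and 2 Sp1 boxes. The inner one holds the only sterol response element core found in the windows searched. The Fads3 window holds 2 NF-Y and 2 Sp1 boxes. Windows were matched for 29 of the 33 genes, 39 windows in all, and covered 7 of the 10 genes that rose and 8 of the 9 that fell. Scd1, Scd2 and Fads1, which rose, and Mcat, which fell, had no window and were not searched. Some windows, such as those of Acaca, Acacb and Tecr, lie inside the annotated gene and not before its first base. Sp1 boxes stood in 27 of the 39 windows (69.2%), against 32.7% of all 32851 windows of the same length. NF-Y boxes stood in 18 of the 39 (46.2%, against 33.8%), E-boxes in 3 (against 6.02%), TEAD sites in 3 (against 12.6%) and the sterol response element core in 1 (against 1.05%). Counted by gene, NF-Y boxes stood in 3 of the 7 that rose and 6 of the 8 that fell. Sp1 boxes stood in all 7 that rose and in 6 of the 8 that fell. Neither direct repeat was found in the 39 windows, and the shares over all windows were 0.0152% for the LXR repeat and 0.0335% for the PPAR repeat. Some windows belong to the same gene, and annotated exons cover part of some, up to 243 of the 250 bases for Fads2 and 234 for Scd4. A match of letters is a description only, and an absent match says only that these letters are not in this window.

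Of the 5 genes that supply acetyl-CoA, malonyl-CoA and NADPH, none rose, 2 fell and 3 did not pass. Acacb, the acetyl-CoA carboxylase tied to mitochondria, measured 167, 217, 147 and 172 CPM in Mst1-TG and 374, 357, 378 and 380.2 CPM in WT. The highest Mst1-TG library stayed far below the lowest WT library. Acacb was 2.12-fold lower, a log2 fold change of -1.08 ± 0.10 (edgeR adjusted p = 2.1e-06). Acaca, the cytosolic acetyl-CoA carboxylase that feeds synthesis, measured 20.5, 18.4, 16.6 and 18.4 CPM in Mst1-TG and 18.4, 15.5, 12.6 and 16.9 CPM in WT. Its groups overlapped and its log2 fold change was 0.22 ± 0.11 (edgeR adjusted p = 0.136). With library totals, which shift the median of all genes to 0.29, it passed (0.51, edgeR adjusted p = 0.00208). Within a library the ratio of Acacb to Acaca counts averaged 9.51 ± 1.58 (SD, n = 4) in Mst1-TG, against 23.9 ± 4.18 in WT. This ratio does not depend on library scaling, and every WT library exceeded every Mst1-TG library. The log2 ratio differed by -1.33, with an exact two-sided permutation p of 0.0286, the smallest that 4 against 4 libraries allow, and 0.0571 after adjustment over the 6 ratios tested.

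Me1, the cytosolic malic enzyme that yields NADPH, measured 65.9, 79.0, 60.1 and 56.0 CPM in Mst1-TG and 116, 124, 128 and 139 CPM in WT. It fell by 0.96 ± 0.10 on the log2 scale (edgeR adjusted p = 6.4e-06), with no overlap between groups. Acly, ATP citrate lyase, averaged 61.6 ± 1.80 CPM (SD, n = 4) in Mst1-TG and 68.0 ± 4.24 in WT, and did not pass (log2 fold change -0.14 ± 0.06, edgeR adjusted p = 0.0785). Over 17 alternative settings its log2 fold change ran from -0.18 to 0.14, and it passed in none. Acss2, which makes acetyl-CoA from acetate, averaged 27.7 ± 2.35 CPM in Mst1-TG and 29.6 ± 1.41 in WT (log2 fold change -0.10 ± 0.08, edgeR adjusted p = 0.329). With library totals in place of TMM factors, the sign of Acss2 turned, to 0.19 with an edgeR adjusted p of 0.0440.

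Fasn, the multifunctional cytosolic synthase, measured 62.4, 53.3, 36.2 and 37.5 CPM in Mst1-TG and 40.7, 30.0, 30.5 and 34.8 CPM in WT. Mst1-TG 1 and 2 lay above all WT libraries, and Mst1-TG 3 and 4 lay below WT 1. Its log2 fold change was 0.48 ± 0.18 and did not pass (edgeR adjusted p = 0.0647). The call turned on single libraries. Fasn passed without Mst1-TG 3 (adjusted p = 0.0270 by edgeR), without Mst1-TG 4 (0.0316) and without WT 1 (0.0456), and without Mst1-TG 1 its log2 fold change was 0.32 (0.127). It also passed with DESeq2 (adjusted p = 0.0174), with library totals in edgeR (0.76, adjusted p = 0.00459) and with the replicate number as a block in edgeR (0.45, adjusted p = 0.0126).

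**Figure D2:**
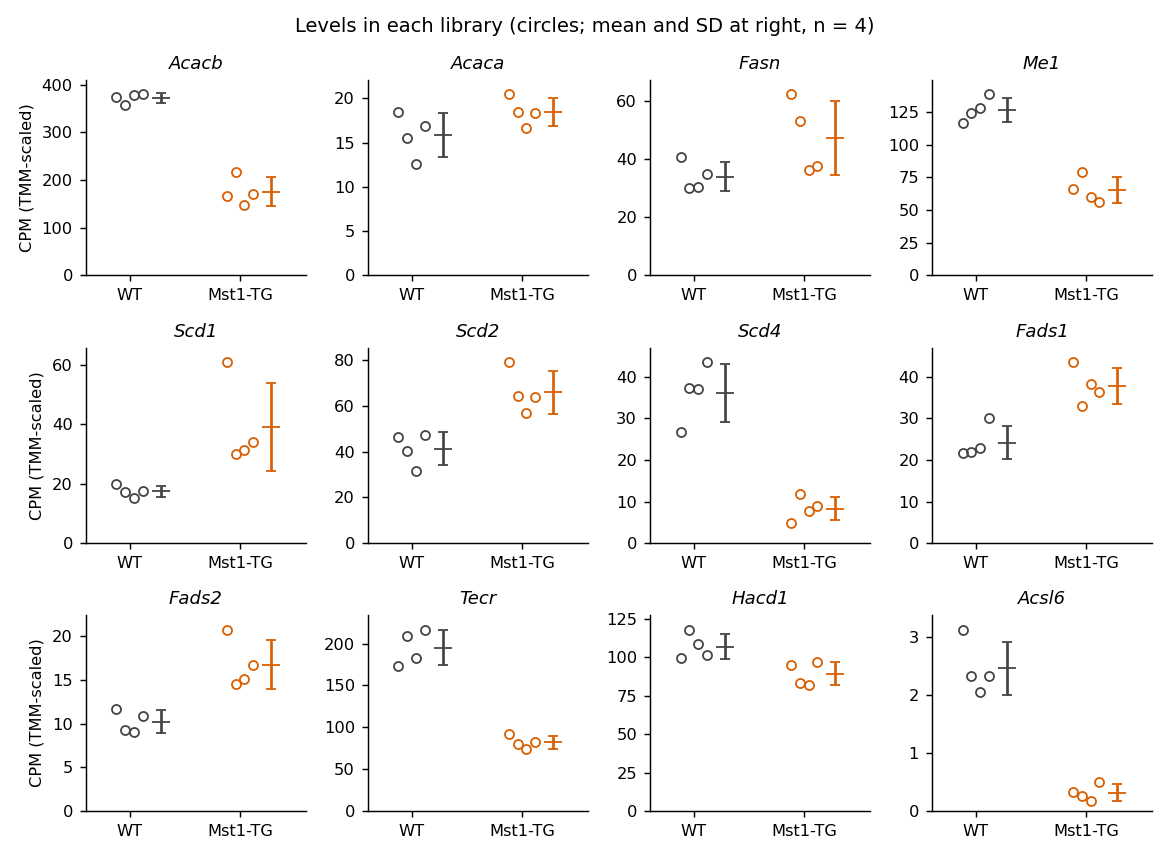
TMM-scaled CPM (y axis, from 0) of 12 genes in each WT and Mst1-TG library, circles from left to right for replicates 1 to 4, with the mean and SD beside them. WT and Mst1-TG libraries are apart for Acacb, Me1, the 3 Scd genes, Fads1, Fads2, Tecr, Hacd1 and Acsl6, and overlap for Acaca and Fasn.

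Mitochondria run a separate synthesis pathway that makes the octanoyl precursor of lipoic acid, and its 3 genes here were all lower in mean. Mcat, the malonyl transferase of this pathway, fell from 28.3 ± 1.496 CPM in WT to 18.1 ± 1.45 in Mst1-TG (SD, n = 4), a log2 fold change of -0.65 ± 0.08 (edgeR adjusted p = 2.1e-05). Mecr, its enoyl reductase, measured 12.3, 9.15, 8.89 and 9.70 CPM in Mst1-TG and 16.4, 17.9, 15.98 and 16.3 CPM in WT. Mecr fell by 0.73 ± 0.11 on the log2 scale (edgeR adjusted p = 1.4e-04), and its highest Mst1-TG library stayed below all WT libraries. Oxsm, its condensing enzyme, measured 16.1, 17.2, 14.5 and 16.6 CPM in Mst1-TG and 18.9, 18.9, 18.5 and 18.2 CPM in WT. The Oxsm groups did not overlap, yet its log2 fold change of -0.21 ± 0.08 did not pass (edgeR adjusted p = 0.0510). It passed with limma-voom (adjusted p = 0.0451) and in edgeR without Mst1-TG 2 (-0.24, adjusted p = 0.0417), and with library totals its value was 0.08. Of 6 other tested genes of this pathway and of lipoylation, 4 fell and none rose, with a median log2 fold change of -0.52. Over all genes tested 21.1% fell and 21.2% rose. Among them Ndufab1, the mitochondrial acyl carrier protein, went from 369 ± 23.8 to 170.4 ± 10.2 CPM (-1.11 ± 0.07, edgeR adjusted p = 8.9e-08). Cbr4, a subunit of its ketoacyl reductase, fell by 0.97, Lias, the lipoyl synthase, by 0.55, and Aasdhppt, which attaches the carrier's prosthetic group, by 0.42 on the log2 scale.

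All 3 delta-9 desaturases changed, and not in one direction. Scd1, the stearoyl-CoA desaturase of liver and fat, measured 61.0, 29.9, 31.5 and 34.0 CPM in Mst1-TG and 19.8, 17.3, 15.1 and 17.6 CPM in WT. Mst1-TG 1 stood far above the other 3, which themselves lay above all WT libraries. Scd1 rose 2.24-fold, a log2 fold change of 1.17 ± 0.23 (edgeR adjusted p = 0.00355), and 0.87 without Mst1-TG 1 (edgeR adjusted p = 1.0e-05). Scd2, the form that prevails in brain and young animals, measured 79.2, 64.1, 56.7 and 63.7 CPM in Mst1-TG and 46.2, 40.2, 31.7 and 47.3 CPM in WT. The lowest Mst1-TG library was above the highest WT library, and Scd2 rose 1.595-fold (0.67 ± 0.13, edgeR adjusted p = 0.00187). Scd4, the form known for its expression in heart, measured 4.95, 11.8, 7.66 and 8.86 CPM in Mst1-TG and 26.6, 37.3, 37.1 and 43.5 CPM in WT. Even the highest Mst1-TG value stayed below the lowest WT value, and Scd4 was 4.35-fold lower (-2.12 ± 0.24, edgeR adjusted p = 1.0e-04). The log2 ratio of Scd2 to Scd1 counts was lower in Mst1-TG by 0.43 in mean, a difference that did not pass (exact permutation p = 0.0571, 0.0857 over the 6 ratios).

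The 3 Scd genes are neighbours in GRCm38 (GENCODE M21), with Scd2 at chr19:44293674-44306864 and Scd4 at chr19:44333092-44346743 on the plus strand and Scd1 at chr19:44394455-44407879 on the minus strand. Scd4, which fell, thus lies between Scd2 and Scd1, which rose, within 114 kb. They share some sequence with other genes: 10.8% of the 31-base words of Scd4, 8.18% of Scd1 and 6.81% of Scd2 also occur elsewhere. The largest share with a single gene was 4.44% for Scd4 (with Scd1). It was 5.84% for Scd1 and 4.83% for Scd2, both with Scd3. How shared reads were divided among them is not given in the labels, and its part in these values was not tested. Scd3, the fourth member of the cluster, averaged 0.198 ± 0.0795 CPM in Mst1-TG, against 0.138 ± 0.114 in WT (SD, n = 4), too few counts to be tested.

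**Figure D3:**
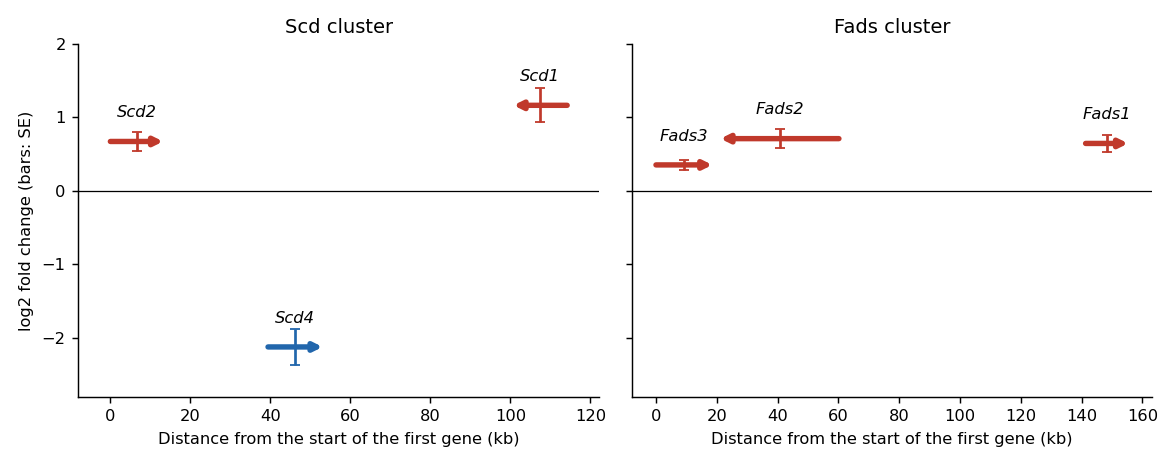
Log2 fold change with its standard error (y axis) against distance along the chromosome in kb (x axis) for the Scd and Fads clusters, with arrows for the extent and direction of each gene, red where it rose and blue where it fell. Scd4 lies at -2.12 between neighbours at 0.67 and 1.17, while the 3 Fads genes lie between 0.35 and 0.71.

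The front-end desaturases Fads1 and Fads2 make highly unsaturated fatty acids from the essential linoleic and linolenic acids, and Fads3 is their relative that acts on sphingoid bases. All 3 rose. Fads1, the delta-5 desaturase, measured 43.5, 33.03, 38.3 and 36.2 CPM in Mst1-TG and 21.6, 22.0, 22.9 and 30.1 CPM in WT. WT 4 stood above the other WT libraries but below every Mst1-TG library, and Fads1 rose 1.57-fold (0.65 ± 0.11, edgeR adjusted p = 6.1e-04). Fads2, the delta-6 desaturase, measured 20.8, 14.5, 15.1 and 16.7 CPM in Mst1-TG and 11.7, 9.25, 9.04 and 10.9 CPM in WT. The groups were apart, and Fads2 rose 1.64-fold (0.71 ± 0.13, edgeR adjusted p = 6.1e-04). Fads3 measured 71.5, 61.7, 63.0 and 63.6 CPM in Mst1-TG and 49.2, 51.1, 51.7 and 51.2 CPM in WT. It rose 1.28-fold (0.35 ± 0.06, edgeR adjusted p = 5.1e-04), with WT libraries close together and all below Mst1-TG. The ratio of Fads2 to Fads1 counts was 0.443 ± 0.0362 (SD, n = 4) in Mst1-TG, against 0.431 ± 0.0785 in WT, a log2 difference of 0.05 (exact permutation p = 0.743). The Fads genes also form one cluster, at chr19:10041569-10060110 for Fads3 (plus strand), chr19:10062765-10101746 for Fads2 (minus strand) and chr19:10182888-10196877 for Fads1 (plus strand), over 155 kb.

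Desaturases take electrons from cytochrome b5 and its reductases. Of 5 such genes 3 rose and none fell, beside 21.2% and 21.1% of all genes tested. Cyb5r3, the main NADH-cytochrome b5 reductase, measured 319.7, 359, 373 and 343 CPM in Mst1-TG and 137, 108, 132 and 133 CPM in WT. The groups were far apart, and Cyb5r3 rose by 1.45 ± 0.09 on the log2 scale (edgeR adjusted p = 4.9e-08). Cyb5r1, a related reductase, rose by 0.40 with no overlap. Cyb5a, the microsomal cytochrome b5, rose by 0.22, and its groups overlapped.

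Elongases catalyse the condensing step that lengthens an acyl-CoA, and of 4 tested, 2 rose and none fell. Elovl1, which makes very long saturated and monounsaturated acids, measured 33.4, 32.9, 34.4 and 32.3 CPM in Mst1-TG and 25.9, 25.3, 26.7 and 31.6 CPM in WT. WT 4 came close to the Mst1-TG libraries, which stayed above it, and Elovl1 rose 1.21-fold (0.28 ± 0.08, edgeR adjusted p = 0.0105). Elovl7, another elongase of saturated and monounsaturated chains, was scarce, at 1.34, 1.25, 1.26 and 1.09 CPM in Mst1-TG and 0.755, 0.775, 0.523 and 0.504 CPM in WT. It rose 1.92-fold (0.94 ± 0.27, edgeR adjusted p = 0.0135), with no overlap. Elovl5, the elongase of polyunsaturated acids, measured 42.0, 42.9, 52.1 and 50.5 CPM in Mst1-TG and 60.4, 49.5, 52.0 and 58.2 CPM in WT. Mst1-TG 1 and 2 were below all WT libraries and the other 2 were within the WT range, and its log2 fold change of -0.23 ± 0.09 did not pass (edgeR adjusted p = 0.0524). In edgeR it passed without Mst1-TG 3 (adjusted p = 0.0265), without Mst1-TG 4 (0.0497) and without WT 2 (0.0336), and with no filter on low counts (0.0214). With library totals its value was 0.06.

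Elovl6, the elongase that turns palmitate into stearate, measured 5.35, 2.59, 2.98 and 2.38 CPM in Mst1-TG and 1.84, 3.00, 1.52 and 2.57 CPM in WT. Only Mst1-TG 1 lay above the WT range. Its log2 fold change was 0.58 ± 0.29 (edgeR adjusted p = 0.132) and 0.25 without Mst1-TG 1, while it passed with library totals (0.87, adjusted p = 0.0236) and with no filter on low counts (adjusted p = 0.0415). Elovl2, which elongates the longest polyunsaturated acids, had 10, 6, 11 and 7 counts in Mst1-TG and 9, 10, 1 and 7 in WT. Elovl4, which makes the very longest chains of retina, skin and brain, had 6, 8, 5 and 9 counts in Mst1-TG and 0, 10, 2 and 1 in WT. The count of 0 in WT 1 allows up to 3 counts, or 0.142 CPM there, by counting error only, and neither gene was tested. The Elovl5 to Elovl6 log2 ratio differed by -0.77, which did not pass (exact permutation p = 0.114, 0.137 over the 6 ratios).

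Each elongation round is completed by a ketoacyl reductase, a dehydratase and an enoyl reductase, and of the 6 genes for these steps 1 rose, 2 fell and 3 did not pass. Tecr, the trans-2-enoyl-CoA reductase of the last step, measured 92.0, 79.8, 73.6 and 82.0 CPM in Mst1-TG and 173, 209, 182 and 216 CPM in WT. Its groups were far apart, and Tecr was 2.38-fold lower (-1.25 ± 0.09), with the smallest adjusted p of the 33 genes (1.8e-07, edgeR). Of the 31-base words of Tecr, 10.2% also occur in other genes, and the part of shared reads in its values was not tested. Hsd17b12, the ketoacyl reductase of the first reduction, overlapped between groups (log2 fold change 0.08 ± 0.12, edgeR adjusted p = 0.602). The dehydratases differed from one another. Hacd1, the form known for striated muscle, measured 95.02, 83.4, 82.2 and 96.7 CPM in Mst1-TG and 99.6, 118, 109 and 101 CPM in WT. The groups did not overlap by a small margin, and Hacd1 fell by 0.26 ± 0.08 on the log2 scale (edgeR adjusted p = 0.0144). With library totals its sign turned, to 0.03 (edgeR adjusted p = 0.780).

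Hacd4 measured 13.4, 16.9, 16.5 and 17.4 CPM in Mst1-TG and 12.8, 8.63, 9.61 and 12.2 CPM in WT. The lowest Mst1-TG library was just above WT 1, and Hacd4 rose 1.48-fold (0.57 ± 0.13, edgeR adjusted p = 0.00369). Of the 31-base words of Hacd4, 10.3% also occur in other genes, most of them in Focad, and the part of shared reads in its values was not tested either. Hacd2 and Hacd3, the widely expressed forms, did not pass, with log2 fold changes of 0.31 ± 0.13 (edgeR adjusted p = 0.0703) and 0.17 ± 0.08 (edgeR adjusted p = 0.128). With library totals Hacd2 (0.60, edgeR adjusted p = 0.00241), Hacd3 (0.45, 9.0e-04) and Hsd17b12 (0.37, 0.0247) passed. Hacd2 passed without Mst1-TG 2 (0.39, edgeR adjusted p = 0.0280) and Hacd3 without WT 4 (0.23, edgeR adjusted p = 0.0353). The log2 ratio of Hacd2 to Hacd1 counts, free of library scaling, was higher in Mst1-TG by 0.56 with no overlap between groups (exact permutation p = 0.0286, 0.0571 over the 6 ratios). After that adjustment the difference did not pass.

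Long-chain acyl-CoA synthetases attach coenzyme A to fatty acids, and of the 4 genes here 1 rose, 1 fell and 2 did not pass. Acsl6, the synthetase known for its preference for docosahexaenoic acid in brain and testis, measured 0.324, 0.259, 0.163 and 0.502 CPM in Mst1-TG and 3.12, 2.33, 2.05 and 2.32 CPM in WT. These values rest on 8, 6, 4 and 12 counts in Mst1-TG and 66, 45, 43 and 46 counts in WT. Only Mst1-TG 4 exceeded the filter level of 0.459 CPM in its group, and all WT libraries were above it. Acsl6 fell by 2.95 ± 0.32 on the log2 scale (edgeR adjusted p = 7.8e-06). Acsl4, which prefers arachidonic acid, measured 20.5, 21.5, 21.04 and 19.6 CPM in Mst1-TG and 20.3, 16.5, 14.9 and 16.3 CPM in WT. WT 1 lay among the Mst1-TG libraries, and Acsl4 rose 1.21-fold (0.28 ± 0.10, edgeR adjusted p = 0.0321).

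The Acsl4 call was lost in edgeR on leaving out Mst1-TG 2 (adjusted p = 0.0699), Mst1-TG 3 (0.0652), WT 2 (0.0740), WT 3 (0.108) or WT 4 (0.0754). Acsl3, which sits on lipid droplets, and Acsl5, a form of mitochondria and endoplasmic reticulum, overlapped between groups and did not pass. Their log2 fold changes were 0.20 ± 0.13 (edgeR adjusted p = 0.241) and 0.17 ± 0.09 (edgeR adjusted p = 0.162), and Acsl5 passed without WT 4 (edgeR adjusted p = 0.0455). With library totals Acsl3 (0.49, edgeR adjusted p = 0.00714) and Acsl5 (0.45, 0.00268) passed. Acsl1, the main synthetase of the heart and a gene of a comparison list, went from 715 ± 60.0 to 379 ± 38.7 CPM (SD, n = 4; -0.91 ± 0.09, edgeR adjusted p = 2.8e-06). The log2 ratio of Acsl4 to Acsl1 counts was higher in Mst1-TG by 1.20 with no overlap (exact permutation p = 0.0286, 0.0571 over the 6 ratios). After that adjustment the difference did not pass.

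Per kb of the longest coding transcript, Tecr was the most abundant of the 33 genes in WT at 153 CPM per kb, followed by Hacd1 at 108, Acacb at 42.4, Me1 at 38.5 and Elovl5 at 19.8. For Tecr alone, the annotation that gave the length holds another version of the gene than the deposited counts. In Mst1-TG Hacd1 came first at 90.0 CPM per kb, then Tecr at 64.3, Acacb at 19.99 ± 3.39 (SD, n = 4), Me1 at 19.8 ± 3.05 and Elovl1 at 18.4 ± 0.494, the last 3 within their SDs of one another. Acaca stood at 1.67 CPM per kb in WT. Scd4 led the delta-9 desaturases in WT at 10.9 CPM per kb, with Scd2 at 7.58 and Scd1 at 3.61. In Mst1-TG the order was Scd2 at 12.1, Scd1 at 8.09 and Scd4 at 2.52. Elovl4, Elovl2, Elovl7, Elovl6 and Acsl6 were lowest in WT, at 0.0552, 0.0874, 0.159, 0.375 and 0.422 CPM per kb, the first pair apart by less than its SDs. Me1, Hacd1 and Acaca share 36.9%, 33.9% and 33.5% of their 31-base words with other genes, mostly with predicted genes that hold almost no counts.

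**Figure D4:**
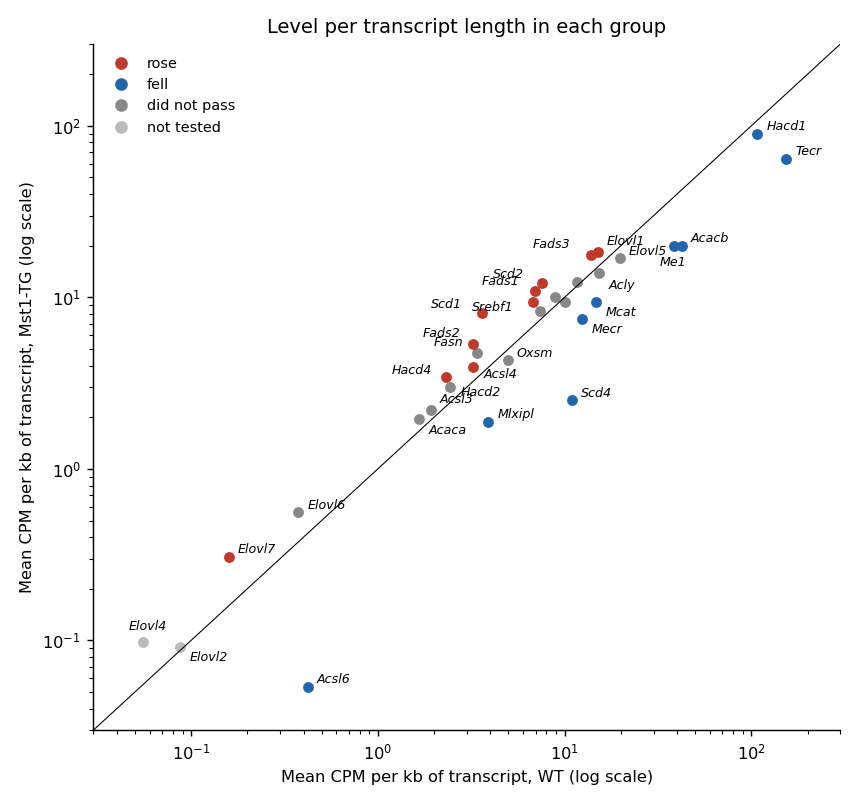
Mean CPM per kb of longest coding transcript in WT (x axis, log scale) and in Mst1-TG (y axis, log scale), 1 point per gene, coloured by call, with a line of equal values. Tecr at 153 and 64.3 lies below the line and Scd1 at 3.61 and 8.09 above it, and Acss2, Acsl5, Hacd3 and Hsd17b12 in the crowded centre carry no name.

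Fat cells express Scd1, Fasn and Elovl6 strongly, and adipose tissue can adhere to a dissected heart. The summed level of 6 adipocyte markers was 0.167 to 11.3 CPM in Mst1-TG, against 0.982 to 15.6 in WT, and no marker was at 0 in all libraries of a group. The highest sums were in WT 4 (15.6 CPM) and Mst1-TG 1 (11.3 CPM). Mst1-TG 1 also had 4.90 CPM of Ucp1, the brown fat uncoupling protein. Cidea, the other brown fat marker looked at, ran from 21.1 CPM in Mst1-TG 1 to 29.4 CPM in Mst1-TG 3 over the 8 libraries. It was at 22.1 CPM in Mst1-TG 2 and 22.2 CPM in WT 1, where Ucp1 was at 0. Mst1-TG 1 was the highest of its group for 17 of the 31 tested genes and for 6 of the 10 that rose. Among WT libraries, WT 4 was the highest for 13 of the 31 and for 4 of the 10. WT 1, with 3.59 CPM of adipocyte markers, was the highest for 10 of the 31 and also for 4 of the 10. In Mst1-TG 2 and 4 the markers summed to 0.173 and 0.167 CPM, with Adipoq, the adiponectin gene, at 0 in Mst1-TG 2, and Scd1 there was 29.9 and 34.0 CPM, above the highest WT value of 19.8. Without both Mst1-TG 1 and WT 4, Scd1 rose by 0.87 on the log2 scale (edgeR adjusted p = 4.8e-05). In that comparison 8 genes rose and 9 fell, and the 2 lost calls were Elovl7 (0.81, edgeR adjusted p = 0.0626) and Acsl4 (0.26, edgeR adjusted p = 0.0923). The part of adipocyte RNA in the values of Mst1-TG 1 was not tested.

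**Figure D5:**
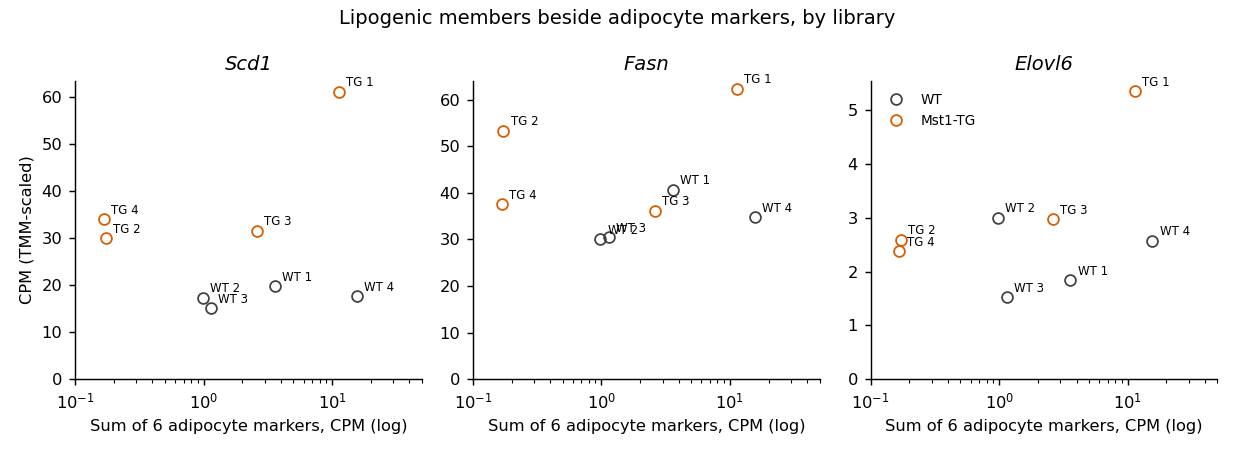
CPM of Scd1, Fasn and Elovl6 (y axes, from 0) against the summed CPM of 6 adipocyte markers (x axis, log scale) in each of the 8 libraries. Mst1-TG 1 is highest in all 3 panels with 11.3 CPM of markers, while WT 4, with 15.6 CPM of markers, is not the highest WT library for any of the 3 genes, and Mst1-TG 2 and 4 exceed all WT libraries for Scd1 with under 1 CPM of markers.

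Other genes of the pathway, from lists drawn up by function, give the setting. Of 49 tested genes in 6 lists, 10 rose (20.4%) and 20 fell (40.8%), beside 21.2% and 21.1% of all genes tested. Their median log2 fold change was -0.18, beside 0.01 over all genes. The same background applies to each list below. Among 15 genes of sterol sensing and nuclear receptors, 3 rose and 5 fell. Thrsp, the lipogenic protein Spot 14, fell by 1.03 ± 0.20 on the log2 scale (edgeR adjusted p = 0.00200), Mlxip, the ChREBP relative MondoA, fell by 0.37 and Rxra, the retinoid X receptor, by 0.35. Mbtps1, the protease that starts SREBP cleavage, rose by 0.25. Among 8 genes that set malonyl-CoA levels, 1 rose and 4 fell. Mlycd, the decarboxylase that removes malonyl-CoA, measured 53.1, 69.9, 69.4 and 69.2 CPM in Mst1-TG and 114, 138, 139 and 139 CPM in WT. It fell by 1.02 ± 0.10 on the log2 scale (edgeR adjusted p = 2.7e-06), as did Acacb, which makes malonyl-CoA. Acsf3, the mitochondrial malonyl-CoA synthetase, fell by 0.77 and Prkag1, a regulatory subunit of the AMP-activated kinase that inhibits both carboxylases, by 0.37. Prkab2, another subunit of that kinase, rose from 49.4 ± 1.75 to 103 ± 6.99 CPM (1.06 ± 0.06, edgeR adjusted p = 5.8e-08).

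In the list of citrate and NADPH supply, 3 of 8 tested genes rose and 3 fell. Slc25a1, the carrier that exports citrate from mitochondria, measured 12.9, 12.7, 16.3 and 14.4 CPM in Mst1-TG and 8.92, 6.56, 6.85 and 8.01 CPM in WT. Every Mst1-TG library exceeded every WT library, and Slc25a1 rose by 0.89 ± 0.13 on the log2 scale (edgeR adjusted p = 7.7e-05). Pgd, which makes NADPH in the pentose phosphate pathway, rose by 0.32. Me3, the mitochondrial NADP malic enzyme, fell by 1.14 and Acss1, the mitochondrial acetate-activating enzyme, by 0.90. In the list of other elongases, desaturases, synthetases and acyl-CoA carriers, no elongase had enough counts to be tested, and the tested desaturases did not pass. Of its 7 tested genes, 4 fell and none rose. Besides Acsl1, these were the acyl-CoA binding protein Dbi (-0.63) and the fatty acid transporters Slc27a1 (-0.59) and Slc27a4 (-0.23).

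Of 21 genes of cholesterol synthesis and uptake, which share SREBP control with the lipogenic genes, 1 rose, 2 fell and 18 did not pass. These are 4.76% higher and 9.52% lower, beside 21.2% and 21.1% of all genes tested. The median log2 fold change was -0.04. Fdft1, squalene synthase, fell by 1.43 ± 0.15 on the log2 scale (edgeR adjusted p = 9.6e-06) and Pmvk, phosphomevalonate kinase, fell by 0.46, while Msmo1, a sterol oxidase, rose by 0.44. All 18 genes of fatty acid oxidation fell, beside 21.1% of all genes tested, with a median of -1.28.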

How the data were processed

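RNA-seq was run on 4 Mst1-TG and 4 WT libraries, made from 200 ng of rRNA-depleted total RNA with a directional kit, per the labels' protocols. The authors deposited estimated counts per gene, which are whole numbers. The tools named are bcl2fastq 2.19.1.403 and kallisto 0.46.0, a transcript pseudoaligner, per the submitters' processing notes. No build, annotation or strand setting is given in the sources used here, so reads of antisense or overlapping genes cannot be told apart.

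Groups came from the sample titles. edgeR 4.0.16 (R 4.3.3) with TMM factors and filterByExpr (minimum count 10, total 15) tested 15314 genes with the quasi-likelihood test, group as the only term, and Benjamini-Hochberg adjustment over all of them. The filter level came to 0.459 CPM in at least 4 libraries. Log2 count ratios between related genes used an offset of 0.5 and exact permutation tests. The fit was tested on simulated data. Total counts of 21193536 to 23809256 gave a median standard error of 0.11 on the log2 scale. Alternatives used DESeq2 1.42.0, limma 3.58.1 (voom), other scaling, no filter, a minimum 1.5-fold change, the replicate block, an offset of 5 and leaving out libraries. Positions and lengths came from GENCODE M21 (GRCm38) and promoters from RefSeq (GRCm38.p6). The deposited symbols were used, and no column was left unused. Text names every member gene, Stk4, Acsl1, and up to 4 called genes per pathway list or 3 per comparison list by smallest adjusted p, with markers where they stand beside a result. Scd3 was named after its values were seen. Members and lists were chosen with earlier results of these data known.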

Additional observations from a re-analysis of the deposited data

Results flagged for a closer look

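In 74 groups of 4 libraries, one per gene or ratio and genotype, 3 held a library far from the other 3, and chance flags about 1 in 20 such groups. Scd1 measured 61.0 CPM in Mst1-TG 1, and the next library of that group had 34.0 CPM. Fads1 measured 30.1 CPM in WT 4, and the next WT library had 22.9 CPM. The log2 ratio of Acsl4 to Acsl1 counts was -4.96 in WT 1, and the next WT library had -5.51.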

How the results depend on the processing

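With library totals in place of TMM factors, 7409 of all genes rose and 1592 fell, and 19 of the genes described rose and 8 fell, while Acss2 turned to 0.19 and Hacd1 to 0.026. That setting moved the median of all genes from 0.01 to 0.29, so these shifts are relative to it. Against a minimum 1.5-fold change, which asks for a larger effect, 894 genes rose and 848 fell, and 1 of the genes described rose, Scd1, and 6 fell, Acacb, Acsl6, Me1, Mlxipl, Scd4 and Tecr. Leaving out 1 library at a time gave 2799 to 3136 genes that rose and 2888 to 3208 that fell, and 9 to 11 and 9 to 10 of the genes described. In the same way the log2 ratio difference ran from -1.44 to -1.22 for Acacb to Acaca, 1.14 to 1.35 for Acsl4 to Acsl1, -0.98 to -0.47 for Elovl5 to Elovl6, -0.02 to 0.17 for Fads2 to Fads1, 0.47 to 0.62 for Hacd2 to Hacd1 and -0.52 to -0.28 for Scd2 to Scd1. With 4 against 3 libraries the smallest permutation p is 0.0571. With the replicate number as a block, 11 of the genes described rose and 9 fell, and 3064 and 3123 of all genes did. Same-numbered libraries were correlated at -0.16, 0.07, 0.02 and -0.02, and none correlated best with its own number. The labels do not say that equal numbers are paired, and these correlations cannot exclude a pairing. Leaving out Mst1-TG 1 and WT 4 together was chosen after seeing the data.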
